A study of Mus musculus with 2 samples.

Results

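The S100 genes encode small calcium-binding proteins of 2 EF-hands each, and 10 of them were examined in bone marrow neutrophils of C57BL/6 mice, an inbred strain. The members were chosen by symbol: every probe set that the platform annotation assigns to a single gene with one of the 10 symbols was taken, on both arrays. Of the 10 genes, 9 had such a probe set (12 probe sets in all), out of 18194 genes measured in the series. S100a11 had none of its own and is not analysed here among the genes. There was 1 group of 2 samples, replicate 1 and replicate 2, each from an experiment of its own, in which live cells with high Gr-1 (a granulocyte antigen) and without CD48 (an antigen found on many other leukocytes) were collected by flow cytometry. The cells were freshly isolated, the labels name no treatment and no genetic change, and 200 ng of total RNA was labelled for each array. The labels do not state the age or sex of the mice, or whether a sample was 1 mouse or a pool.

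S100 proteins form dimers that open a binding surface when calcium rises, and so pass a calcium signal on to partner proteins. S100a8 and S100a9 pair into calprotectin, the main calcium-binding protein of the neutrophil cytosol, which withholds zinc and manganese from microbes and, once released, acts as an alarmin on Toll-like receptor 4 and RAGE. The other members are best known from other settings: S100a10 as the partner of annexin A2, S100a6 as the partner of calcyclin-binding protein, S100a4 as a regulator of non-muscle myosin, S100a13 in the unconventional release of cytokines, S100a1 in heart muscle, and S100a3 and S100a5 in hair and olfactory neurons.

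All 10 genes lie on chromosome 3, where the NCBI gene table lists 15 genes named S100a. S100a8 and S100a9 are direct neighbours on opposite strands with 0 coding genes between them, and S100a1 and S100a13 are likewise direct neighbours on opposite strands. The 250 bases before the annotated start are shown for S100a8 and S100a9, which among the S100 genes above background differed most between the arrays, for S100a6, which had a bright signal that differed little, and for S100a4, which was not above background. The sequences are from RefSeq (build GRCm38.p6), read 5′ to 3′ on the strand of the gene, and capitals mark TATAAA, the TATA box letters, where it lies upstream of the start. They cover chr3:90668821-90669070 (plus strand) for S100a8, chr3:90695722-90695971 (minus strand) for S100a9, chr3:90612644-90612893 (plus strand) for S100a6 and chr3:90603520-90603769 (plus strand) for S100a4.
S100a8: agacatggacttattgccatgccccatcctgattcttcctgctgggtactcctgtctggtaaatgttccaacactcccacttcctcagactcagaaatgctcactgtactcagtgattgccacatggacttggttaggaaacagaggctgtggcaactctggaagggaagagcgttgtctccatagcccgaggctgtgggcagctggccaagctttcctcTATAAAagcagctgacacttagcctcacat
S100a9: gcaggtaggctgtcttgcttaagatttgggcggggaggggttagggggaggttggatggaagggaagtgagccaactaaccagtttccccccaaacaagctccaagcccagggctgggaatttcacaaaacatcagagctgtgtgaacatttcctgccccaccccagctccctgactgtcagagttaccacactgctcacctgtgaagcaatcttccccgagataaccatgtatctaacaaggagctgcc
S100a6: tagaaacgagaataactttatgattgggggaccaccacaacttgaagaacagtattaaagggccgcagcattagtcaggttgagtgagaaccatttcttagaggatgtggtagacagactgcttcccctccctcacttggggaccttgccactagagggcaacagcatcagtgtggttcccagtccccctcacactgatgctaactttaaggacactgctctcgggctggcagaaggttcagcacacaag
S100a4: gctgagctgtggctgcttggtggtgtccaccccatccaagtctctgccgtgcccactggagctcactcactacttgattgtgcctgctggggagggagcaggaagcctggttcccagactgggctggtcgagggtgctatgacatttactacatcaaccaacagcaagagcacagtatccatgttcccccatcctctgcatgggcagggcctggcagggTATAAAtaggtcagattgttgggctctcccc

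The letters TATAAA, searched on the strand of the gene, began 30 bases before the start of S100a8 and 31 bases before that of S100a4. In S100a9 they lay at bases 1 to 6 after the annotated start, just past the end of the stretch shown. S100a6 did not hold them in its window of 300 bases (250 before and 50 after the start). Of 32851 such windows of all genes, 8.32% held TATAAA, and 1.99% held it within 40 to 16 bases before the start. GAGGAA, the core letters bound by the myeloid factor PU.1, was searched on both strands and occurred in S100a8 at 36 to 31 and at 170 to 165 bases before the start and in S100a4 at 20 to 25 bases after it, where 28.3% of all windows held it. Of the genes not shown, S100a3 and S100a11 also held it. TTGCNNAA, a spelling of the C/EBP site, occurred in S100a9 at 236 to 229 bases before the start, where 10.8% of all windows held it on either strand. The search found neither of these 2 motifs in the window of S100a6, and a match in these letters is a description, not a binding site.

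Each array gives 1 linear signal per probe set, already scaled by the authors so that both arrays have the same trimmed mean. Probe sets were called above background when their signal on both arrays exceeded the 95th percentile of 87 probe sets of sensory receptor genes, which was 108 on replicate 1 and 131 on replicate 2. The labelled cell type was checked on 10 neutrophil genes, all above background, with the granule genes Ltf, Camp and Lcn2 among them. Of the marker lists of other marrow cells, 4 of 7 monocyte, 3 of 8 macrophage, 1 of 6 eosinophil and basophil, 1 of 6 lymphoid and 3 of 6 erythroid genes were above background, beside 40.4% of all measured genes. Hybridisation controls, bacterial and phage sequences that the array maker's protocol adds to each hybridisation, were brighter on replicate 2 by a median of 0.73 on the log2 scale (18 probe sets, range 0.59 to 0.82). The ratio of the 3′ to the 5′ actin control was 1.10 on replicate 1 and 1.25 on replicate 2. Probe sets bind with different strengths, so the signal of one gene was not set against that of another.

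Of the 9 measured S100 genes, 5 were above background on both arrays (S100a1, S100a6, S100a8, S100a9 and S100a13), beside 40.4% of all measured genes. S100a10 was above it on replicate 1 alone, and S100a3, S100a4 and S100a5 on neither array. By position, S100a8 and S100a9 form one pair of neighbours above background and S100a1 and S100a13 another, while S100a3, S100a4 and S100a5, which lie between S100a13 and S100a6, were not above it. S100a14 and S100a16, which are not among the 10 genes, lie in the same stretch. S100a16 was above background on both arrays and S100a14 on neither. The call of S100a1 rests on 1 of its 2 probe sets.

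**Figure D1:**
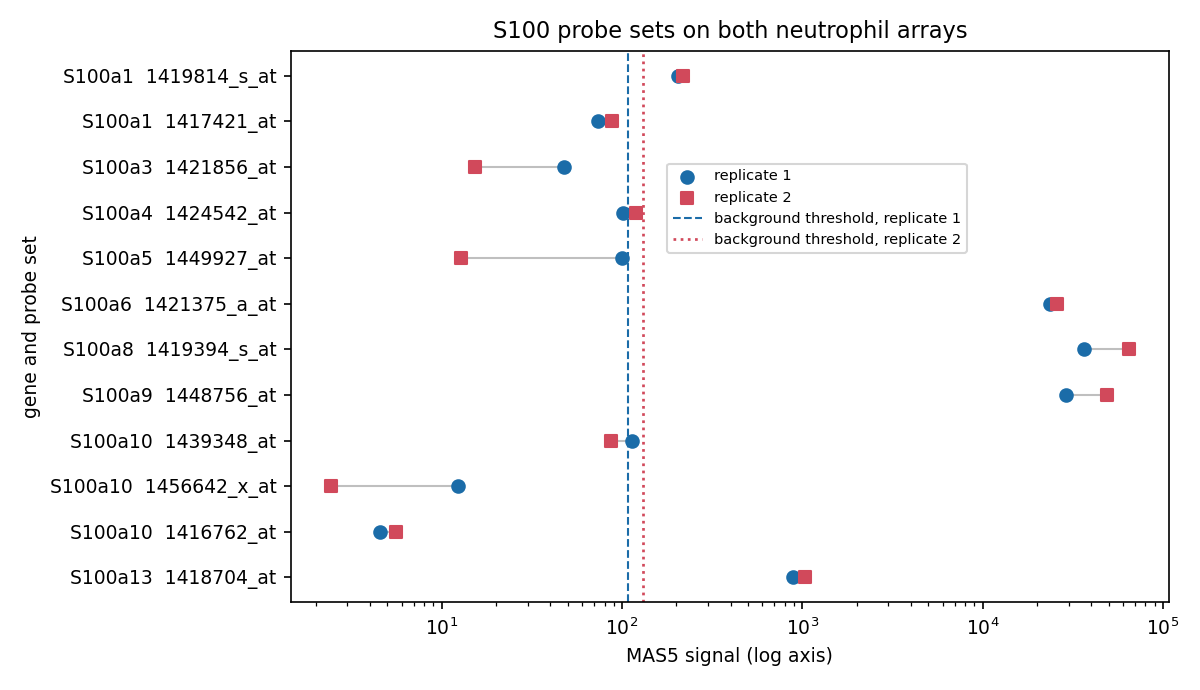
MAS5 signal (log axis) of the 12 single-gene S100 probe sets on replicate 1 (circles) and replicate 2 (squares), with the background threshold of each array as a vertical line. S100a6, S100a8 and S100a9 lie at 23725 or higher on both arrays, S100a13 and 1 probe set of S100a1 lie above both thresholds, and the other 7 probe sets do not pass on both arrays.

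The calprotectin genes were bright on both arrays and brighter on replicate 2. S100a8 gave 36507 on replicate 1 and 64632 on replicate 2, or 339 and 492 times the background threshold, with a log2 level of 15.57 ± 0.58 (SD, n = 2). S100a9 gave 29150 and 49120, or 271 and 374 times the threshold, with a log2 level of 15.21 ± 0.53 (SD, n = 2). As deposited, replicate 2 was thus the higher array for both subunits of the dimer. The log2 difference, replicate 2 minus replicate 1, was 0.82 for S100a8 (1.77-fold) and 0.75 for S100a9 (1.69-fold), so the subunits differed from each other by 0.07. With 1 array per experiment such differences have no replicate check. The hybridisation controls, which are not from the cells, were also higher on replicate 2, by a median of 0.73 (range 0.59 to 0.82). S100a8 was read on 1 probe set of the type named _s_at, which can bind several transcripts, and S100a9 on 1 that is not of this type.

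The signals of S100a8 and S100a9 were among those that differed most in their range of brightness. Of 7354 genes above background, 6.08% had a higher difference than S100a8 and 7.57% a higher one than S100a9. Among the 54 genes with a log2 signal above 14 on both arrays, the difference of S100a8 ranked 1, that of Ltf (lactoferrin, a secondary granule protein) ranked 2 at 0.82, and that of S100a9 ranked 3. Of these 54 genes 46 were higher on replicate 2, with a median of 0.27, beside 56.3% and 0.07 over all genes above background. Quantile normalization, which forces the signals of both arrays into the same distribution, left differences of 0.06 for S100a8 and 0.16 for S100a9. Both genes lie near the top of each array (highest signals 47382 and 78810), where this matching by rank leaves little room for a difference. How much of the deposited difference is shared by all bright signals, and how much belongs to S100a8 and S100a9, was not tested. Scaling to the hybridisation controls left 0.10 and 0.03, where the median of all genes above background was -0.66.

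**Figure D2:**
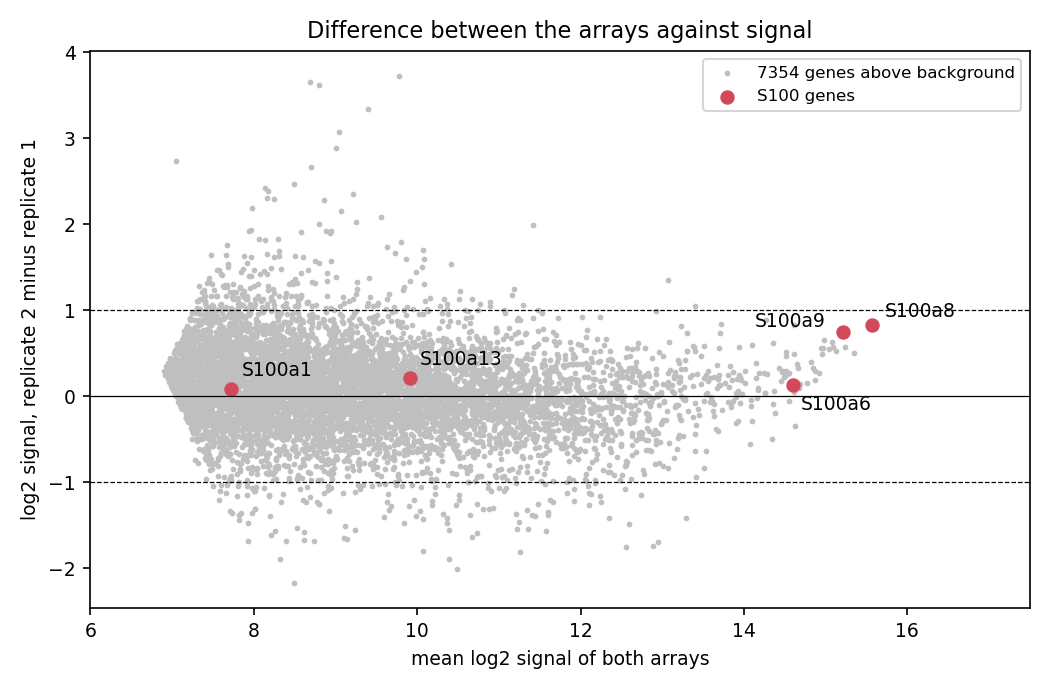
Log2 signal of replicate 2 minus replicate 1 against the mean log2 signal of both arrays, for 7354 genes above background (grey) and the 5 S100 genes among them (red); dashed lines mark a 2-fold difference. S100a8 and S100a9 lie at the bright end at 0.82 and 0.75, and S100a6, S100a13 and S100a1 lie between 0.09 and 0.21.

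S100a6, or calcyclin, gave 23725 on replicate 1 and 25920 on replicate 2, with a log2 level of 14.60 ± 0.09 (SD, n = 2). Its difference of 0.13 ranked 39 among the same 54 bright genes. S100a6 thus lay far above background (220 and 197 times the threshold) with almost the same signal on both arrays. Under quantile normalization its difference was -0.12, and under the hybridisation controls -0.60.

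S100a13 gave 891 on replicate 1 and 1034 on replicate 2, a log2 level of 9.91 ± 0.15 (SD, n = 2) and a difference of 0.21. S100a1 was read on 2 probe sets that did not give the same call. The probe set of the _s_at type had 206 and 218, above background on both arrays, with a log2 level of 7.73 ± 0.06 (SD, n = 2) and a difference of 0.09. The other probe set had 73.3 and 87.5, above background on neither. The call of S100a1 therefore rests on the first of these, 1.91 and 1.66 times the threshold.

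The remaining genes had signals at or under the background. S100a4, which regulates non-muscle myosin, had 102 on replicate 1 and 120 on replicate 2, each just under the threshold of its array (0.945 and 0.915 of it). With the threshold at the 90th percentile (94.3 and 92.3) S100a4 was above background on both arrays. S100a10 had 113 and 87.4 on its brightest probe set, and 12.3 and 2.43 and then 4.56 and 5.59 on the others. None of these 3 probe sets was above background on both arrays. Anxa2, the gene of the S100a10 partner, was above it on both, but signals of different probe sets are not comparable as levels. S100a3 had 47.8 and 15.3, and S100a5 had 99.5 and 12.8, so both were lower on replicate 2, but as they lay under the background on both arrays no fold is given.

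Across the 5 S100 genes above background, 5 were higher on replicate 2, beside 56.3% of all genes above background. Their median log2 difference was 0.21, beside 0.07 over all 7354 genes. No S100 gene above background differed by over 2-fold, beside 5.4% of all genes above background (3.43% higher and 1.97% lower on replicate 2). Under quantile normalization 3 were higher and 2 lower, with S100a6 and S100a1 (-0.00028) below 0. Scaling to the hybridisation controls lowers all differences by the same amount, which put S100a1, S100a6 and S100a13 below 0 and left their distance from the median of all genes as it was. Relative to the median of all genes, S100a8 and S100a9 were higher by 0.75 and 0.68 as deposited. After quantile normalization, which leaves little room for a difference among the brightest signals, they were higher by 0.01 and 0.11.

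**Figure D3:**
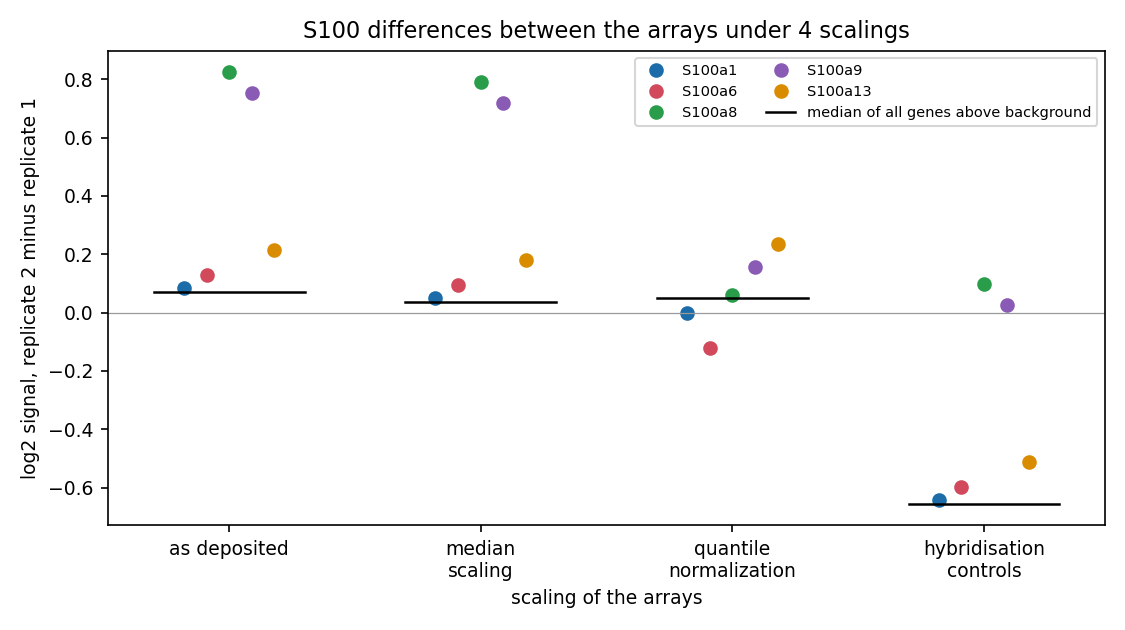
Log2 signal of replicate 2 minus replicate 1 for the 5 S100 genes above background (points) under 4 scalings of the arrays, with the median of all genes above background as a black line. S100a8 and S100a9 stand at 0.82 and 0.75 as deposited and at 0.06 and 0.16 after quantile normalization; S100a1, S100a6 and S100a13 lie at most 0.19 from the black line under each of the 4.

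Other gene groups differed between the same arrays. The summed signal of 11 proliferation genes was 1327 on replicate 1 and 9178 on replicate 2. Of those above background, 7 of 7 were higher there, beside 56.3% of all genes above background. The summed signal of 10 neutrophil genes was 185932 and 242489, with 7 higher and 3 lower (56.3% and 43.7% over all genes above background). Among them Ltf and Camp were higher on replicate 2, while the receptor genes Cxcr2 (7212 and 3224, a difference of -1.16) and Csf3r (7951 and 4670, -0.77) were lower. The summed signal of 8 macrophage genes was 1479 and 926, and that of 7 monocyte genes 5907 and 2786. Of the latter, Csf1r alone had 5020 and 1928, and the other 6 summed to 886 and 858. Ccr2 had 157 and 220, while Klf4 and Irf8 were under background on both arrays and none was at 0. The part of these groups in the difference of S100a8 and S100a9 was not tested. In sorted cells measured in bulk, more cells of a type and more RNA per cell cannot be told apart.

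Of the other S100-family genes on the array, S100a16 was above background on both arrays (239 and 208, a difference of -0.20), while S100a14, S100b, S100g and S100a7l2 were not. S100pbp, which encodes an S100-binding protein, had 227 and 137. Genes of the fused type join S100 domains to long repeats in skin proteins. None of the 5 measured (Flg, Hrnr, Rptn, Tchh and Tchhl1) was above background on both arrays, where 40.4% of all measured genes were.

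Genes of S100 receptors were mostly above background and lower on replicate 2. Of 9 measured, 7 were above background, beside 40.4% of all measured genes. Of these 7, 6 were lower on replicate 2 and 1 higher, where 43.7% of all genes above background were lower. The median difference was -0.66, and 2 were over 2-fold lower (Alcam and Ly96), beside 1.97% of all genes above background. With 32 added to the signal Ly96 was at -0.99, just under 2-fold. Tlr4, the Toll-like receptor on which calprotectin acts, had 938 on replicate 1 and 532 on replicate 2, a difference of -0.82, and its co-receptor gene Ly96 had 551 and 261, a difference of -1.08. Cd14, another part of that receptor complex, had 1280 and 882. As deposited, the calprotectin genes were thus higher, and the 3 genes of this receptor complex lower, on replicate 2. Alcam, an adhesion molecule, had 688 and 289 on its brightest probe set, a difference of -1.25, and its other 4 probe sets were also lower on replicate 2 (-0.49 to -0.94). Ager, which encodes RAGE, lay close to background with 217 and 138. Nptn (neuroplastin) had 4605 and 3587. Bsg (basigin) had 252 and 299 and was the 1 receptor gene higher on replicate 2. Cd36 was under background on both arrays, and Mcam was above it on replicate 1 alone (535 and 17.3), at least 4.07-fold higher there against the threshold of replicate 2. The median of the receptor genes was -0.69 under median scaling and -0.75 under quantile normalization, where those of all genes were 0.04 and 0.05, and -1.38 under the hybridisation controls, where that of all genes was -0.66.

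Genes of proteins that bind S100 proteins inside the cell were above background in 8 of 9, beside 40.4% of all measured genes. Of these 8, 6 were higher and 2 lower on replicate 2 (56.3% and 43.7% over all genes above background), with a median difference of 0.28 beside 0.07, and none was over 2-fold different, beside 5.4%. Anxa1, a partner of S100a11, had 31565 and 46958, a difference of 0.57. Anxa2, the partner of S100a10, had 15190 and 14293, a difference of -0.09. Cacybp, the partner of S100a6, had 513 and 879, a difference of 0.78, so it was higher on replicate 2 by more than S100a6 itself. Myh9, the non-muscle myosin heavy chain bound by S100a4, had 12637 and 13556. Ncf1 and Cyba, subunits of the NADPH oxidase that calprotectin binds, had differences of 0.38 and 0.18. Ppp5c, a phosphatase, had 150 and 290 on its brightest probe set. Its other probe sets, not above background on both arrays, were lower on replicate 2 (162 and 118, 74.4 and 40.1). Anxa6 had 169 and 156, while Ahnak was not above background. The median of this list was 0.07 after quantile normalization and -0.45 under the hybridisation controls, where those of all genes were 0.05 and -0.66.

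Other EF-hand calcium sensors were above background in 11 of 12, beside 40.4% of all measured genes. Of these 11, 6 were higher and 5 lower on replicate 2, close to the 56.3% and 43.7% over all genes above background, with a median difference of 0.03 beside 0.07. Gca, the grancalcin of neutrophil granules, had 1128 and 2120, a difference of 0.91, and its second probe set gave 1.11. The sorcin gene Sri had 8739 and 9133, Pdcd6 had 2887 and 2240, and Pef1 had 792 and 674.

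**Figure D4:**
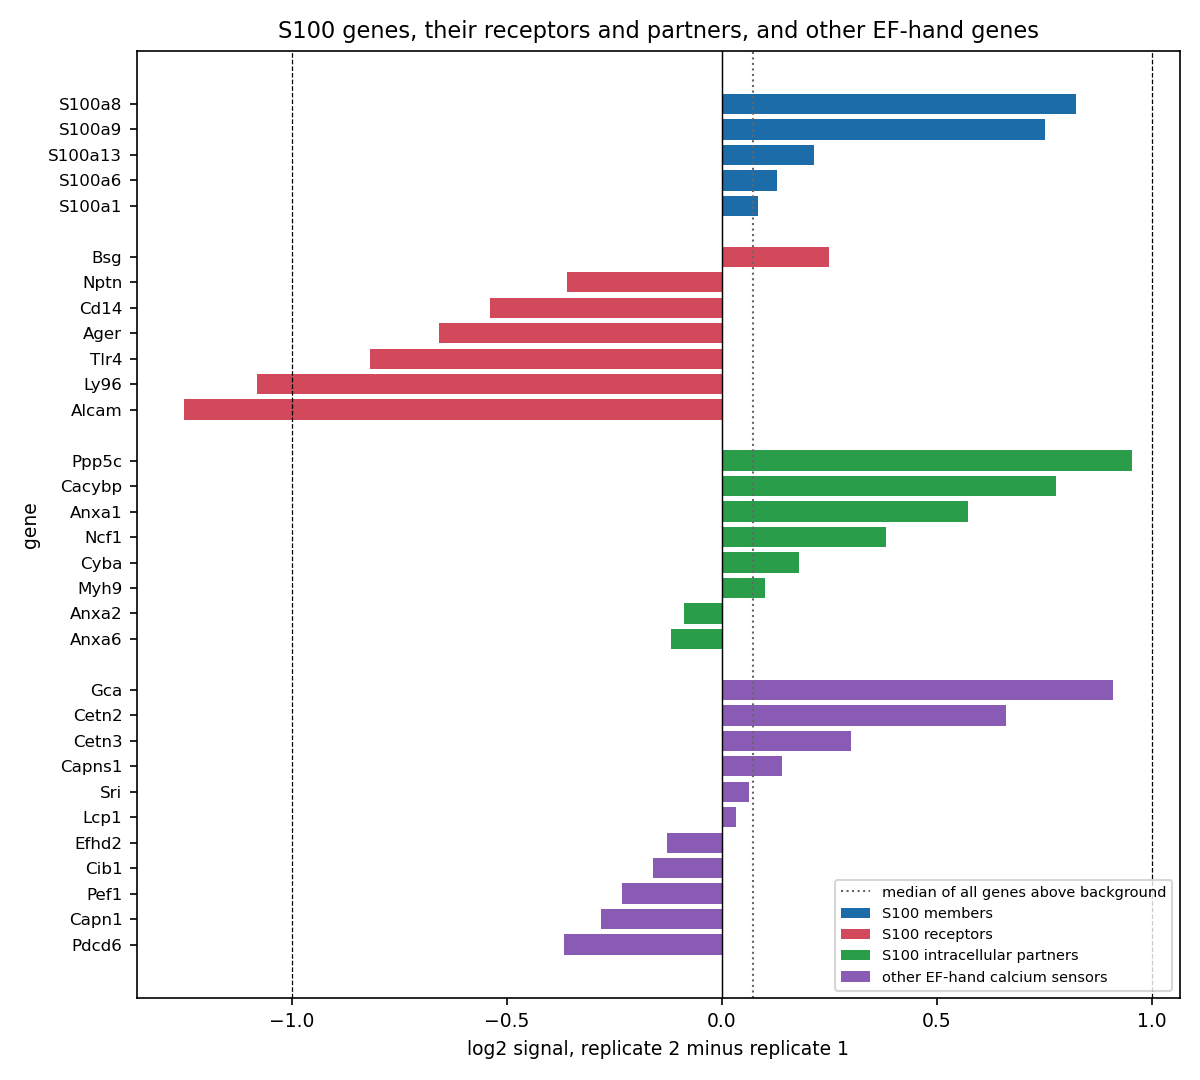
Log2 signal of replicate 2 minus replicate 1 as deposited, 1 bar per gene above background, for the S100 genes, S100 receptors, intracellular partners and other EF-hand genes; dashed lines mark a 2-fold difference and the dotted line the median of all genes above background. All 5 S100 bars and 6 of 8 partner bars point to replicate 2, 6 of 7 receptor bars point to replicate 1, and Ly96 and Alcam pass 2-fold.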

How the data were processed

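Marrow neutrophils from 2 experiments were measured on 1 array each. The deposited values are linear signal intensities, for which the submitters' processing notes name MAS5 without a version or settings. The mean without the lowest and highest 2% was 250.0 on both arrays, so differences are relative to that scaling. The number of arrays, 2, limits the precision. Of 45101 probe sets, 34958 have 1 gene in the platform annotation, 932 several and 9211 none here; all 10 member symbols matched the NCBI table (GRCm38.p6). Genes were read on their brightest probe set, with signals floored at 1 before log2. A gene was above background if any probe set passed on both arrays. With 1 array per experiment no test was made. The procedure was checked on simulated arrays. Members, lists and the rule for named genes (all members, receptor and partner genes, and the first 4 measured or over 2-fold genes of other lists) were chosen with earlier results of these data known. S100pbp, S100a7l2, Tchhl1 and the genes of the marker lists were named after their values were seen. Alternatives were other thresholds, scalings, filters, probe sets and a signal with 32 added. Python 3.11.15, numpy 2.4.6 and pandas 2.3.3 were used.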

Additional observations from a re-analysis of the deposited data

Results flagged for a closer look

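A signal appeared in a probe set that the S100 comparison did not use. It is assigned to S100a11, its pseudogene S100a11-ps and Gm12854 together, and gave 18758 on replicate 1 and 18657 on replicate 2, above the background thresholds of 108 and 131, with a log2 difference of -0.01. Which of the 3 genes it read cannot be told apart, so no level is given for S100a11.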

How the results depend on the processing

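The count of 5 S100 genes above background was 6 with the 90th percentile as threshold and 5 with the 99th. It was 5 to 6 when each replicate was left out, and 6 with the probe set shared by S100a11, an alternative chosen after seeing the data. Without _x_at and _s_at probe sets it was 3, because S100a1 and S100a8 then lack a probe set above background. The count of 0 genes over 2-fold different became 2 without a filter on background (S100a3 and S100a5, both lower on replicate 2) and was 0 under the other 6 alternatives. The median difference of 0.21 ranged from 0.06 to 0.21 under the alternatives other than the hybridisation controls, where it was -0.51 and the median of all genes was -0.66. Values for single probe sets of S100, receptor and partner genes under 4 alternatives numbered 120. Of these, 82 moved by less than the SD of all differences (0.50) and 38 by more. The hybridisation controls, which lower every difference by the same amount, gave 30 of the 38. Quantile normalization gave 3, namely S100a8, S100a9 and Anxa1, and adding 32 to the signal gave 5. No difference over 2-fold as deposited changed sign, while smaller ones did, among them S100a6, S100a13, Anxa1 and Bsg. No paired analysis was possible because there is 1 group. Signals under background limit S100a3, S100a4, S100a5 and S100a10.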
